A study of Triticum aestivum with 13 samples.

Results

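Transcript levels in infested leaves of TugelaDn1 were set against those of Tugela, 2 near-isogenic lines of bread wheat, on 3 single-colour Affymetrix wheat arrays per line. These 6 arrays are part of a series of 13 arrays over 4 lines. The other lines are TugelaDn2, grouped in the series as tolerant, and TugelaDn5, grouped as antibiotic like TugelaDn1. Their infested leaves, also sampled at 48 h, entered the same fit and are set beside TugelaDn1 in places. TugelaDn1 has the genotype Dn1 and is labelled resistant to the Russian wheat aphid, with antibiosis as its host response and a non-virulent aphid response. Tugela has the genotype Dn0, is labelled susceptible, and the aphid is called virulent on it. Plants of both lines were infested at the 3-leaf stage with 10 aphids per plant without a choice of host, and leaves were sampled at 48 h, so the aphid was present in every group and no uninfested plant was analysed here. The 111 control probe sets with names in AFFX were removed, which left 61179 of 61290. These include 64 named RPTR, which were kept, of which 1 was bright and 5 differed at least 2-fold without overlap of repeats. Over all 61179 probe sets, 2.29% were at least 2-fold higher and 1.56% at least 2-fold lower in TugelaDn1 without overlap. Of the 61179, 19637 had a mean log2 signal of 8 or more in TugelaDn1 or in Tugela and are called bright. The probe sets nearest to that limit had log2 changes of -0.05 (Ta.8870.1.A1_a_at) and -0.35 (Ta.7213.2.S1_at) just inside and of 0.47 (Ta.27217.1.S1_at) and 0.09 (TaAffx.97483.1.S1_at) just outside.

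The Russian wheat aphid feeds from the phloem, and its saliva causes leaf rolling and chlorotic streaking in susceptible wheat. Dn genes are single loci that give resistance to it. Antibiosis is the form of resistance in which feeding on the plant harms the insect's growth, survival or reproduction, in contrast to tolerance, in which the plant withstands feeding, and antixenosis, in which the plant is avoided.

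A probe set is a group of short probes that together read 1 transcript, and its log2 signal is given throughout. Intensities under 16 were raised to 16, so 4 is the floor and a level at the floor is only an upper bound. The mean intensity without the top and bottom 2% of values was 500.1 on each array. Spearman correlations of arrays, computed over all probe sets, were 0.867 to 0.873 among the TugelaDn1 arrays, 0.868 to 0.881 among the Tugela arrays and 0.862 to 0.885 between the lines. The ratio of the 3' to the 5' control probe set, which moves with RNA integrity, was 4.28 to 9.04 in TugelaDn1 and 3.05 to 4.97 in Tugela for glucose-6-phosphate dehydrogenase, and 21.8 to 88.8 in TugelaDn1 and 20.3 to 57.9 in Tugela for sucrose synthase. The ubiquitin ratio was 0.35 to 0.5 in TugelaDn1 and 0.35 to 0.46 in Tugela, with medians of 0.36 and 0.37. The part of differences in these ratios in the results was not tested. The samples read as green leaf: the probe sets for PsbO, a protein of the oxygen-evolving complex, averaged 16.36 in TugelaDn1 and 16.32 in Tugela, and those of grain were dim, with 1 of 17 seed storage probe sets bright.

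Differences between TugelaDn1 and Tugela were small for most transcripts. Among bright probe sets 92.2% differed by less than 1.5-fold, and the median log2 change was -0.03. A log2 change of a bright probe set had a 95% confidence interval with a median half-width of 0.46, against 1.26 for the other probe sets. In limma's test, 5 of 61179 probe sets passed an adjusted p of 0.05, which is 0.00817% of those tested, with 1 higher (0.00163%) and 4 lower (0.00654%) in TugelaDn1. At an unadjusted p under 0.05 the number was 4421, of which 2453 were higher and 1968 lower. Of the 5, 2 were bright (0.0102% of bright probe sets), and none was paired with a gene in the tables used.

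The only called rise was that of TaAffx.104444.1.S1_at. It measured 13, 12.59 and 12.79 in the TugelaDn1 repeats, against 4, 5.90 and 4 in the Tugela repeats. All 3 TugelaDn1 repeats were bright, while 2 of 3 Tugela repeats lay at the floor. The log2 change was 8.16 (SE 0.46, adjusted p = 0.000941), which makes the signal at least 286-fold higher in TugelaDn1. The smallest distance between a TugelaDn1 and a Tugela repeat was 6.69 on the log2 scale, the widest of any bright probe set. Its level averaged 12.12 in TugelaDn2 and 12.18 in TugelaDn5, so it was bright in each of the Dn lines.

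The 4 called falls ended at or near the floor in TugelaDn1. Ta.5897.3.S1_at was at 4 in all 3 TugelaDn1 repeats, against 8.18, 8.02 and 7.99 in Tugela. It was at least 16.7-fold lower in TugelaDn1 (log2 change -4.06, SE 0.39, adjusted p = 0.0292). Repeats of either line lay within 0.2 of each other, and the lines were far apart.

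Ta.3467.2.S1_a_at measured 4.47, 4 and 4 in TugelaDn1, against 7.94, 8.09 and 7.85 in Tugela (log2 change -3.80, SE 0.35, adjusted p = 0.0242). Signal was thus at least 13.9-fold lower in TugelaDn1 with no overlap of repeats. Ta.3467.2.S1_a_at was dim, with a mean of 7.96 in Tugela, and so were the probe sets of the remaining falls. Ta.18372.1.S1_at measured 4.02, 4 and 4 in TugelaDn1, against 6.57, 6.37 and 5.82 in Tugela, at least 4.75-fold lower (adjusted p = 0.0452). TaAffx.107226.1.S1_at was at the floor in the 3 TugelaDn1 repeats, against 5.86, 5.75 and 5.93 in Tugela, at least 3.59-fold lower (adjusted p = 0.002). A floor of 64 in place of 16 ended all 4 calls of a fall, with an adjusted p of 0.274 for Ta.5897.3.S1_at, 0.156 for Ta.3467.2.S1_a_at, 0.681 for Ta.18372.1.S1_at and 1 for TaAffx.107226.1.S1_at in limma.

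Called probe sets with relatives on the array did not all have relatives that moved alike. A transcript cluster is the group of probe sets that share the number in their name, and they can share probes. In cluster Ta.5897, Ta.5897.3.S1_x_at measured 7.01, 6.07 and 5.64 in TugelaDn1, against 8.68, 8.87 and 9.11 in Tugela (log2 change -2.64, adjusted p = 0.193), and the dim Ta.5897.2.S1_x_at changed by -1.84 (adjusted p = 0.113). Repeats did not overlap in either of them. The bright Ta.5897.1.S1_a_at, in contrast, had a log2 change of -0.35 with overlapping repeats. In cluster Ta.3467, the bright Ta.3467.1.S1_at had a log2 change of -0.24, against -3.80 for the called member. The dim Ta.3467.2.S1_x_at measured 4.73, 5.67 and 7.28 in TugelaDn1, against 6.48, 7.06 and 7.61 in Tugela, with overlap (log2 change -1.16, adjusted p = 0.716).

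**Figure D1:**
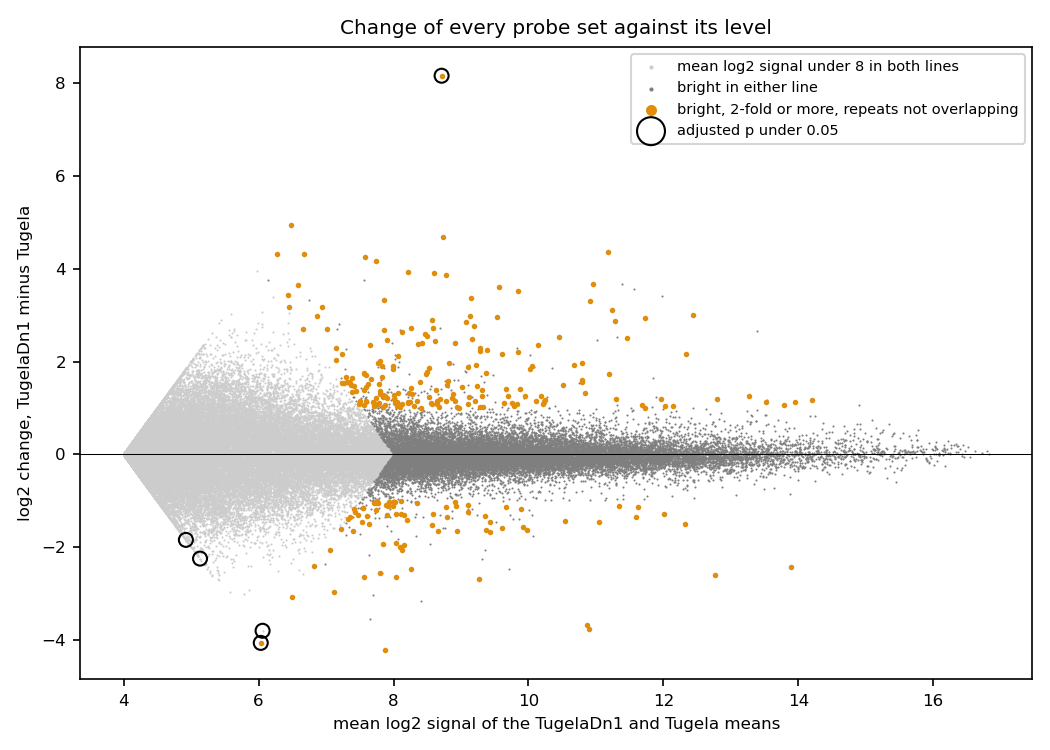
Log2 change (TugelaDn1 minus Tugela, y axis) of each of 61179 probe sets against the mean log2 signal of the lines (x axis). Bright probe sets are dark grey, those that differed 2-fold or more without overlap of repeats are orange, and the 5 called ones are circled, of which TaAffx.104444.1.S1_at stands alone at 8.16.

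Larger differences, called or not, were more often toward a higher level in TugelaDn1. Of the bright probe sets, 300 were at least 2-fold higher and 142 at least 2-fold lower in TugelaDn1. Repeats of the lines did not overlap for 185 of the higher (0.942% of bright probe sets) and 77 of the lower ones (0.392%), while over all probe sets the shares were 2.29% higher and 1.56% lower. At 4-fold the numbers of bright probe sets without overlap were 60 higher and 16 lower, and at 8-fold 23 higher and 5 lower. Over all probe sets they were 182 higher and 102 lower at 4-fold, less uneven, and 27 higher and 7 lower at 8-fold. Non-overlap by itself was frequent: it held for 6570 probe sets, 10.7% of all tested, and for 16.6% of bright ones, split into 1450 higher (7.38%) and 1804 lower (9.19%), against 5.41% higher and 5.33% lower over all probe sets. The excess of higher over lower was therefore seen among large differences and not among all separated ones. With arrays centred on their medians it was smaller, 149 higher and 93 lower at 2-fold without overlap (38.4% lower, against 29.4% as scaled by the authors).

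A stricter measure asked that each TugelaDn1 repeat be at least 2-fold away from each Tugela repeat. It was met by 27 bright probe sets with the higher level in TugelaDn1 (0.137%) and by 9 with the lower level (0.0458%), against 0.329% and 0.281% of all probe sets. Of these 36, 4 were paired with a gene, all higher in TugelaDn1: LOC542941, LOC542887, LOC542812 and PEAMT1.

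Repeats within a line differed, and not evenly. Over the 18635 probe sets with a mean of 8 or more on the 6 arrays, TugelaDn1 repeat 3 was at least 2-fold away from both other repeats of its line for 396 probe sets (2.13%), against 142 for repeat 1 and 148 for repeat 2. Tugela repeat 1 was apart for 382 (2.05%), against 105 for repeat 2 and 88 for repeat 3. Of the 185 bright probe sets higher in TugelaDn1, Tugela repeat 1 was the Tugela repeat nearest to TugelaDn1 in 121, and repeats spanned 2-fold or more within TugelaDn1 in 78 and within Tugela in 100. Of the 77 lower ones, the TugelaDn1 repeats spanned 2-fold or more in 50 and the Tugela repeats in 17.

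Without Tugela repeat 1, the bright probe sets 2-fold apart and not overlapping numbered 354 higher and 167 lower. They numbered 308 and 125 without TugelaDn1 repeat 1, 258 and 127 without TugelaDn1 repeat 2, 283 and 151 without TugelaDn1 repeat 3, 210 and 91 without Tugela repeat 2, and 233 and 141 without Tugela repeat 3. With fewer repeats fewer values can overlap, so a larger number is built into leaving one out.

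The 10 largest differences toward a higher level in TugelaDn1 among bright, non-overlapping probe sets comprised TaAffx.104444.1.S1_at and 9 that were not called. Of these 9, TaAffx.9022.1.S1_at had the widest distance between the nearest repeats of the lines, 3.17 on the log2 scale. It measured 7.52, 8.18 and 9.58 in TugelaDn1, against 4.35, 4 and 4 in Tugela (log2 change 4.31, SE 0.67, adjusted p = 0.152). Every TugelaDn1 repeat was above 7.5 and every Tugela repeat close to the floor. Ta.7926.1.A1_at measured 10.67, 10.75 and 10.21 in TugelaDn1, against 7.51, 6.18 and 6.25 in Tugela (log2 change 3.90, adjusted p = 0.211). Ta.27760.1.S1_at measured 8.03, 7.77 and 10.71 in TugelaDn1, against 4, 4.76 and 4.78 in Tugela (log2 change 4.32, adjusted p = 0.409). The lines were 2.70 apart at their nearest repeats for Ta.7926.1.A1_at and 2.98 apart for Ta.27760.1.S1_at.

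In others of these 10, 1 repeat came close to the other line. Ta.23373.1.S1_at measured 11.05, 10.76 and 5.03 in TugelaDn1, against 4 in all 3 Tugela repeats (log2 change 4.95, adjusted p = 0.457). TugelaDn1 repeat 3 was the low one, and without it the probe set was called. Its cluster also held Ta.23373.1.S1_x_at, with 10.97, 10.88 and 8.57 in TugelaDn1 against 8.13, 8.70 and 8.54 in Tugela, where TugelaDn1 repeat 3 lay within the Tugela range. The remaining 3 bright members of the cluster had log2 changes of -0.23, -0.19 and -0.04.

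TaAffx.15327.1.S1_at measured 12.48, 13.57 and 14.01 in TugelaDn1, against 11.58, 8.02 and 7.41 in Tugela (log2 change 4.35, adjusted p = 0.488). Tugela repeat 1 was high, within 1 unit of the lowest TugelaDn1 repeat. Ta.8584.1.S1_at, with 9.06, 9.86 and 10.18 in TugelaDn1 against 7.33, 4.99 and 4 in Tugela (log2 change 4.26, adjusted p = 0.373), and Ta.223.1.S1_at, with 9.19, 10.75 and 10.59 in TugelaDn1 against 7.62, 6.58 and 4.52 in Tugela (log2 change 3.94, adjusted p = 0.333), had the same order of repeats in Tugela. Tugela repeat 1 was the Tugela repeat nearest to TugelaDn1 in 6 of the 10.

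Of the 10 largest differences toward a lower level in TugelaDn1, only Ta.5897.3.S1_at was called. Ta.26802.1.A1_at measured 5.35, 6.62 and 4.91 in TugelaDn1, against 8.76, 8.68 and 8.37 in Tugela (log2 change -2.97, SE 0.57, adjusted p = 0.286). Ta.25792.1.S1_at measured 4, 5.40 and 5.46 in TugelaDn1, against 8.36, 7.88 and 7.86 in Tugela (log2 change -3.08, adjusted p = 0.522). All TugelaDn1 repeats of these probe sets were more than 3-fold below all Tugela repeats.

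TugelaDn1 repeat 3 was the TugelaDn1 repeat nearest to Tugela in 7 of these 10. Ta.1912.1.S1_at measured 4, 4 and 9.31 in TugelaDn1, against 10.58, 9.98 and 9.42 in Tugela (log2 change -4.22, SE 1.43, adjusted p = 0.586). Repeats 1 and 2 of TugelaDn1 were at the floor and repeat 3 was level with Tugela. Ta.5498.1.S1_at, with 6.66, 4.44 and 9.04 in TugelaDn1 against 9.28, 9.44 and 9.33 in Tugela, had the same shape (log2 change -2.63, adjusted p = 0.59). In TaAffx.128896.22.S1_s_at, a bright probe set in both lines, values were 11.03, 10.81 and 12.57 in TugelaDn1 against 15.61, 12.80 and 13.80 in Tugela (log2 change -2.60, adjusted p = 0.537). It is not paired with a gene. TaAffx.128896.17.S1_s_at, which shares the number in its name and is paired with rbcl, went the other way (log2 change 0.47, adjusted p = 0.629).

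**Figure D2:**
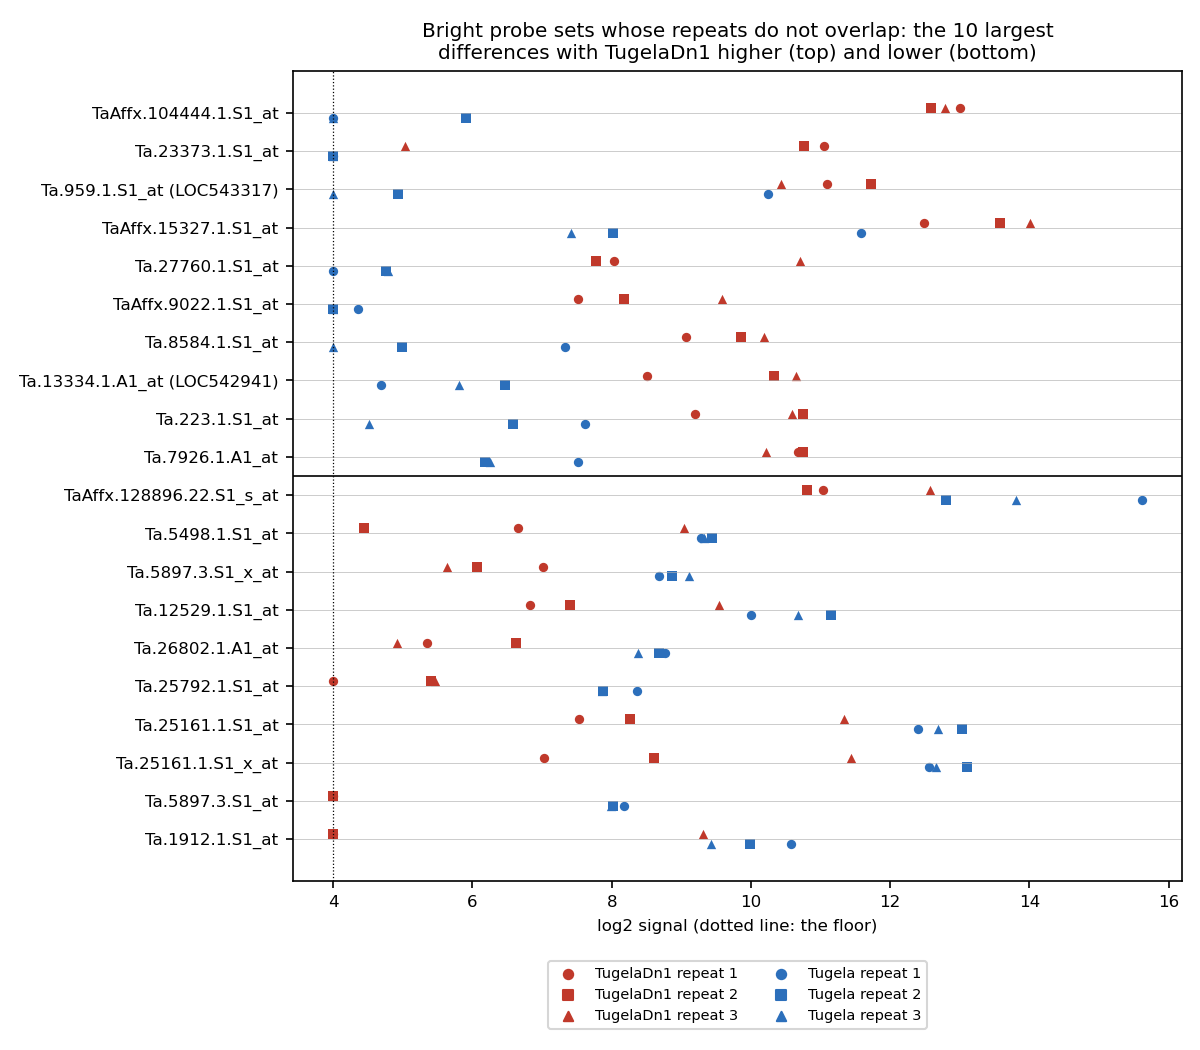
Log2 signal (x axis, floor as a dotted line) of each repeat of TugelaDn1 (red, upper) and Tugela (blue, lower) for the 10 largest differences in each direction among bright probe sets without overlap (y axis); points at the same value hide each other. Tugela repeat 1 (blue circle) is often the Tugela point nearest to TugelaDn1 in the upper rows, and TugelaDn1 repeat 3 (red triangle) the nearest to Tugela in 7 of the 10 lower rows.

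Of 3454 clusters with at least 2 bright probe sets, 60.7% had all bright members on the same side of 0, where 44.7% of all bright probe sets were above 0, and the median spread of log2 changes within a cluster was 0.21. Another bright probe set in the cluster was at hand for 2 of the 10 largest differences with the higher level in TugelaDn1, and both had 1 or more on the other side of 0. It was at hand for 6 of the 10 with the lower level, of which 5 had all members on the same side. These 5 include Ta.25161.1.S1_at with Ta.25161.1.S1_x_at, and Ta.5897.3.S1_at with Ta.5897.3.S1_x_at. Some clusters were thus counted more than once, and the 5 are not separate cases. All bright members were at least 2-fold higher in TugelaDn1 in 24 clusters and at least 2-fold lower in 4, while 83 and 33 clusters had any such member. All bright members were without overlap of repeats in 63 clusters with the higher level and 51 with the lower level in TugelaDn1, together 3.3% of the clusters. Both conditions held for 7 clusters higher and 2 lower in TugelaDn1. None of the cluster members described next was called, and none of these clusters had a gene in the tables.

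Ta.25161 had the lowest values among clusters without overlap. Its Ta.25161.1.S1_at measured 7.53, 8.26 and 11.33 in TugelaDn1, against 12.40, 13.03 and 12.69 in Tugela (log2 change -3.67, adjusted p = 0.373). Its Ta.25161.1.S1_x_at measured 7.02, 8.60 and 11.43 in TugelaDn1, against 12.56, 13.10 and 12.66 in Tugela (log2 change -3.76, adjusted p = 0.374). Both put TugelaDn1 repeat 3 nearest to Tugela, and both were called without that repeat. Cluster Ta.12529 had the same order of repeats, with Ta.12529.1.S1_at at 6.82, 7.40 and 9.54 in TugelaDn1 against 10.00, 11.15 and 10.67 in Tugela and a median log2 change of -2.57 over its 2 members. The 4 smaller clusters on this side, Ta.6187, Ta.9717, Ta.13575 and Ta.11919, had medians from -1.20 to -0.81. In Ta.11919, 3 probe sets with log2 changes of -0.99, -0.81 and -0.69 lay within 0.3 of each other.

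Among clusters with the higher level in TugelaDn1, Ta.21354 had the highest median, 3.25. Its Ta.21354.1.A1_x_at measured 10.25, 12.07 and 12.49 in TugelaDn1, against 9.40, 7.44 and 7.42 in Tugela (log2 change 3.51, adjusted p = 0.444). TaAffx.108556 followed with a median of 3.13, its TaAffx.108556.1.S1_x_at at 10.41, 11.16 and 10.91 in TugelaDn1 against 9.36, 5.66 and 7.36 in Tugela. In both, Tugela repeat 1 was the highest of its line. Ta.15082, Ta.1967, Ta.21340 and Ta.27744 had medians of 2.05, 1.65, 1.34 and 1.33. In Ta.15082 a further, dim probe set, Ta.15082.2.S1_at, was at the floor in all TugelaDn1 repeats and at 4, 6.59 and 6.31 in Tugela, a log2 change of -1.63 against 2.20 and 1.90 for the bright members.

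**Figure D3:**
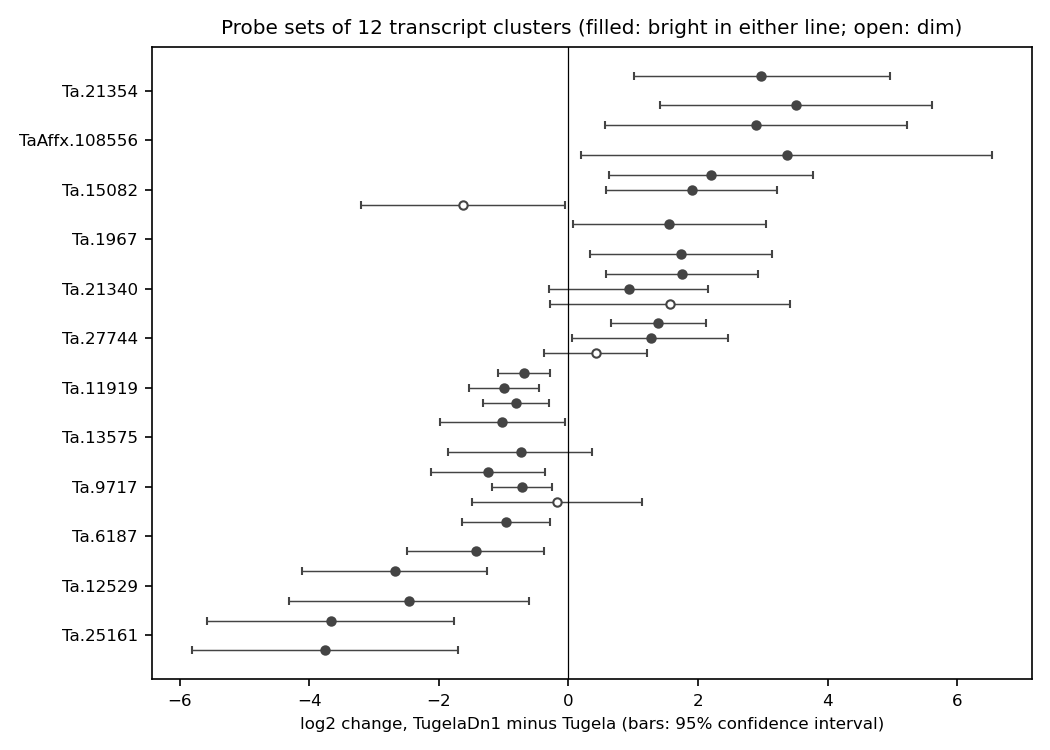
Log2 change (TugelaDn1 minus Tugela, x axis) with its 95% confidence interval for each probe set of 12 transcript clusters (y axis), filled where bright and open where dim. The bright members of a cluster lie on the same side because the clusters were chosen for it. The open point of Ta.15082 lies at -1.63, opposite to its bright members.

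Only 1273 of the probe sets were paired with a gene, of which 713 were bright, and no call fell among them. Of the bright paired probe sets, 18 (2.52%) were at least 2-fold higher and 3 (0.421%) at least 2-fold lower in TugelaDn1 without overlap, against 0.942% and 0.392% of all bright probe sets. Genes known only by a LOC number led. LOC542941 (Ta.13334.1.A1_at) measured 8.50, 10.33 and 10.64 in TugelaDn1, against 4.68, 6.47 and 5.80 in Tugela, an 18-fold higher level (log2 change 4.17, SE 0.58, adjusted p = 0.113). Its lines were 2.03 apart at the nearest repeats, the widest distance of any paired bright probe set.

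LOC543317 (Ta.959.1.S1_at) had a larger log2 change, 4.69, over more uneven repeats: 11.09, 11.72 and 10.43 in TugelaDn1, against 10.25, 4.93 and 4 in Tugela (adjusted p = 0.545). Tugela repeat 1 was level with TugelaDn1. The other bright probe set of its cluster, Ta.959.2.S1_at, averaged 14.16 in TugelaDn1 and 14.26 in Tugela, a log2 change of -0.11. LOC542887 (Ta.25053.1.S1_at), with 10.15, 10.78 and 11.22 in TugelaDn1 against 8.99, 5.72 and 5.83 in Tugela, and LOC543330 (Ta.28.1.S1_at), with 11.71, 12.58 and 13.41 in TugelaDn1 against 11.14, 8.43 and 8.23 in Tugela, showed the same order (log2 changes 3.87 and 3.30). LOC542812 (Ta.2781.1.S1_at) was even in both lines, at 10.98, 11.54 and 11.25 in TugelaDn1 against 9.94, 9.65 and 9.70 in Tugela (log2 change 1.5, SE 0.28, adjusted p = 0.261). Of the other LOC genes on this side, LOC543287, LOC543313, LOC543492, LOC100049056, LOC100037634, LOC543256 and LOC542839 had log2 changes from 1.08 to 2.12, LOC543002 had 1.05 and LOC542992 1.0, and LOC100037634 was read by 2 probe sets of cluster TaAffx.9231 at 1.32 and 1.08.

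Genes with a name beyond a LOC number were few on this side, and none was called. PEAMT1 encodes phosphoethanolamine N-methyltransferase, which makes phosphocholine with S-adenosylmethionine as the methyl donor. Its Ta.1842.1.S1_a_at measured 12.35, 11.23 and 11.75 in TugelaDn1, against 10.23, 9.15 and 10.02 in Tugela (log2 change 1.97, SE 0.37, adjusted p = 0.261). Every TugelaDn1 repeat was about 2-fold or more above every Tugela repeat, but the other bright probe set of its cluster, Ta.1842.2.S1_at, not paired with a gene, had a log2 change of -0.10 with overlapping repeats.

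SAHH encodes S-adenosylhomocysteine hydrolase, which splits S-adenosylhomocysteine into adenosine and homocysteine. Its Ta.1258.1.S1_a_at measured 13.66, 14.30 and 14.27 in TugelaDn1, against 13.64, 12.46 and 12.76 in Tugela (log2 change 1.13, adjusted p = 0.444), and Ta.1258.2.S1_x_at had a log2 change of 1.04. TugelaDn1 repeat 1 and Tugela repeat 1 were nearly level. COMT1, which methylates caffeic acid units on the way to lignin and stands alone in the lignin list, measured 11.95, 12.49 and 11.64 in TugelaDn1, against 11.45, 10.69 and 11.08 in Tugela (Ta.336.1.S1_x_at, log2 change 0.96, adjusted p = 0.53).

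Differences toward lower levels in TugelaDn1 were smaller among paired genes. LOC542792 (Ta.30336.1.S1_x_at) measured 10.84, 10.02 and 10.09 in TugelaDn1, against 11.85, 11.45 and 12.05 in Tugela (log2 change -1.47, SE 0.36, adjusted p = 0.374). LOC542888 (Ta.13255.1.S1_at) measured 6.81, 6.48 and 6.63 in TugelaDn1, against 8.44, 8.17 and 7.45 in Tugela (log2 change -1.38, adjusted p = 0.374). LOC543003 followed with a log2 change of -1.13. The remaining 12 of the 15 largest had log2 changes from -0.85 to -0.42 and included GA20ox1b, tubb2, LTP3, Hmgb3 and H2A-3.

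**Figure D4:**
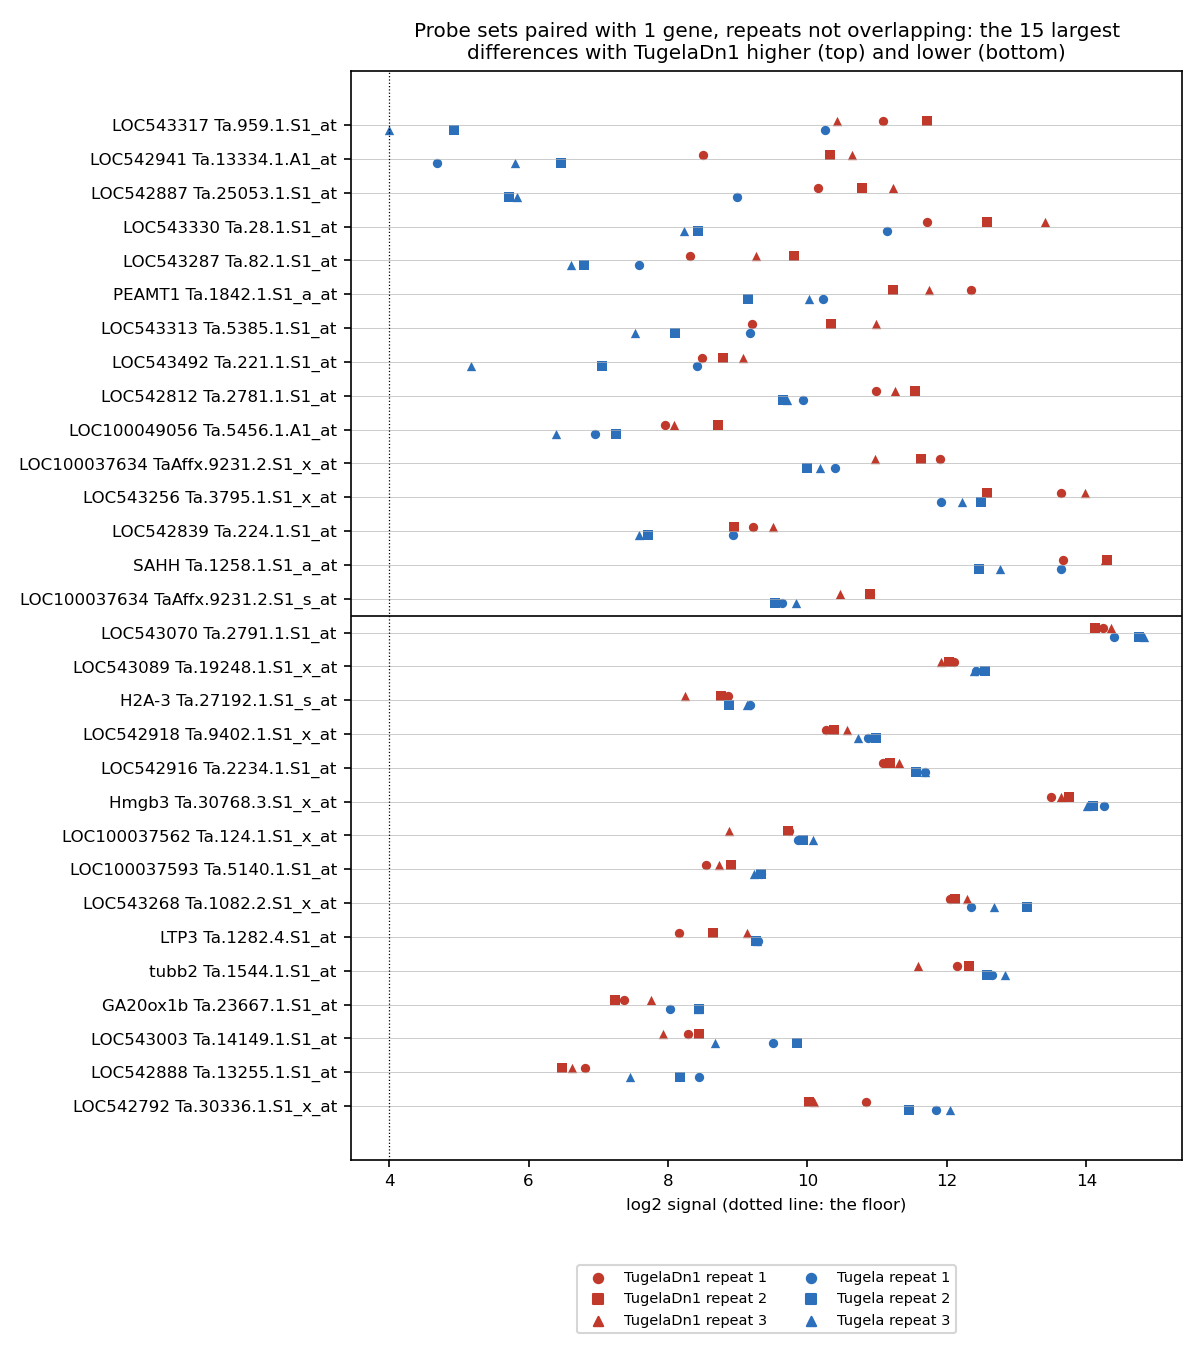
Log2 signal (x axis, floor as a dotted line) of each repeat of TugelaDn1 (red, upper) and Tugela (blue, lower) for the 15 largest differences in each direction among bright probe sets paired with a gene and without overlap (y axis). LOC542941 and LOC542812 are separated in all repeats, while LOC543317 has Tugela repeat 1 beside the TugelaDn1 repeats; the lower rows differ by at most 1.47.

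Genes of known roles were read through 16 lists with 133 probe sets of 59 genes. No member was called in either direction, against 0.00817% of all probe sets, and the median log2 change over the list members was 0.00, as over all probe sets. A count of members above or below 0 is therefore a description only. Lists for jasmonate, salicylate and ethylene, for receptors and kinases, for nitrogen and amino acids and for cytochrome P450 and detoxification had no member among the paired genes.

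PR5, a thaumatin-like pathogenesis-related protein and the only member of the defence list, measured 13.10, 13.81 and 14.18 in TugelaDn1, against 13.28, 9.17 and 8.38 in Tugela (Ta.24501.1.S1_at, log2 change 3.42, SE 1.35, adjusted p = 0.652). Tugela repeat 1 lay within the TugelaDn1 range, and repeats 2 and 3 lay far below it. The thionin and lipid transfer list had 2 bright members of 7, both of LTP3, a gene for a small lipid-binding protein. Ta.1282.1.S1_x_at was nearly equal in the lines (log2 change 0.01), and the dimmer Ta.1282.4.S1_at measured 8.16, 8.64 and 9.13 in TugelaDn1 against 9.29, 9.26 and 9.27 in Tugela (log2 change -0.63, adjusted p = 0.793). In protease inhibitors no serpin probe set was bright, with log2 changes from -0.30 to 0.58, and GLU1A, a benzoxazinoid glucosidase, had 0.11.

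In the carbon fixation list 10 of 12 bright probe sets were above 0 and 2 below, with a median of 0.35, against 44.7% of all bright probe sets above 0. FBP, fructose-1,6-bisphosphatase, measured 11.86, 11.66 and 11.72 in TugelaDn1 against 11.13, 11.23 and 11.48 in Tugela (log2 change 0.47, adjusted p = 0.566). Repeats of this probe set, Ta.439.1.S1_at, did not overlap. The dim TaAffx.106041.1.S1_at, also paired with FBP, measured 4, 4.52 and 6.74 in TugelaDn1 against 6.27, 7.18 and 7.12 in Tugela, with overlap (log2 change -1.77, adjusted p = 0.698). The brightest probe set of rbcl, the large subunit of Rubisco (Ta.24976.1.S1_x_at), had a log2 change of 0.01. Across its 9 bright probe sets log2 changes went from -0.13 to 0.84, with TaAffx.128414.146.S1_at at the upper end, so probe sets of the same gene did not agree. In the photosystem list all 4 bright probe sets were above 0: PsbP at 0.84 (TaAffx.120874.1.S1_x_at) and 0.46 (Ta.85.1.S1_at), petC at 0.20 and PsbO at 0.04, none called.

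The gibberellin list held 4 probe sets of 3 genes for gibberellin 20-oxidase, which makes precursors of active gibberellins. All 4 were below 0, with a median log2 change of -0.80. GA20ox1b (Ta.23667.1.S1_at) measured 7.37, 7.24 and 7.75 in TugelaDn1, against 8.03, 8.45 and 8.43 in Tugela (log2 change -0.85, adjusted p = 0.748), without overlap. GA20OX1-A (Ta.23668.1.S1_at) had a log2 change of -0.99, and GA20ox1d had -0.75 and -0.53 in its 2 probe sets, all with overlapping repeats and adjusted p from 0.656 to 0.767. Bright by their mean in either line were 3 of the 4, and TugelaDn1 means were 6.51 to 8.24.

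Genes of dividing tissue split. Of 12 bright probe sets 5 were above 0 and 7 below, with a median of -0.06. The beta-tubulin tubb2 measured 12.14, 12.31 and 11.59 in TugelaDn1, against 12.65, 12.58 and 12.84 in Tugela (Ta.1544.1.S1_at, log2 change -0.68, adjusted p = 0.488). By comparison, tubb3 had 0.29, tubb1 0.15 and Tubb4 -0.14. Tubb5 had 0.43 (Ta.214.1.S1_at), 0.39 (Ta.214.2.A1_x_at) and -0.10 (Ta.214.1.S1_x_at) in bright probe sets. The histone wcH2B-6 measured 10.75, 10.39 and 10.68 in TugelaDn1 against 10.11, 9.08 and 10.07 in Tugela (Ta.27708.1.S1_x_at, log2 change 0.85, adjusted p = 0.596), but its other probe set, Ta.27708.1.S1_at, had -0.09. The histones H2A-3 and H2A-9 both had -0.44 in a bright probe set, but the dim Ta.27192.1.S1_at of H2A-3 had 0.52.

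The remaining lists differed little. In the scavenging of reactive oxygen, CAT1, a catalase, had a log2 change of 0.40 and GSTZ1, a glutathione transferase, had -0.31, -0.28 and 0.07 in its bright probe sets. The translation list had 5 of 7 bright probe sets below 0, the lowest being RPS29, a ribosomal protein, at -0.86 with 9.22, 9.31 and 6.04 in TugelaDn1 against 9.60, 8.31 and 9.23 in Tugela. TugelaDn1 repeat 3 alone was low for RPS29. H+-ATPase, the proton pump, had 0.05 to 0.18 in 3 probe sets, and the malate transporter ALMT1-1 had 0.38. In sugar and starch metabolism the bright probe sets had 0.00 to 0.24. The beta-amylase BMY1 at 0.00 had uneven repeats in Tugela, with 8.30, 9.06 and 8.66 in TugelaDn1 against 7.09, 10.44 and 8.49 in Tugela, and without single repeats it ran from -0.79 to 0.89. The only bright seed storage probe set, of the avenin-like gene ALP, was level in the lines (13.04 in TugelaDn1 and 13.12 in Tugela), and no bright probe set was found for cold and dehydration proteins or for heat shock proteins.

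**Figure D5:**
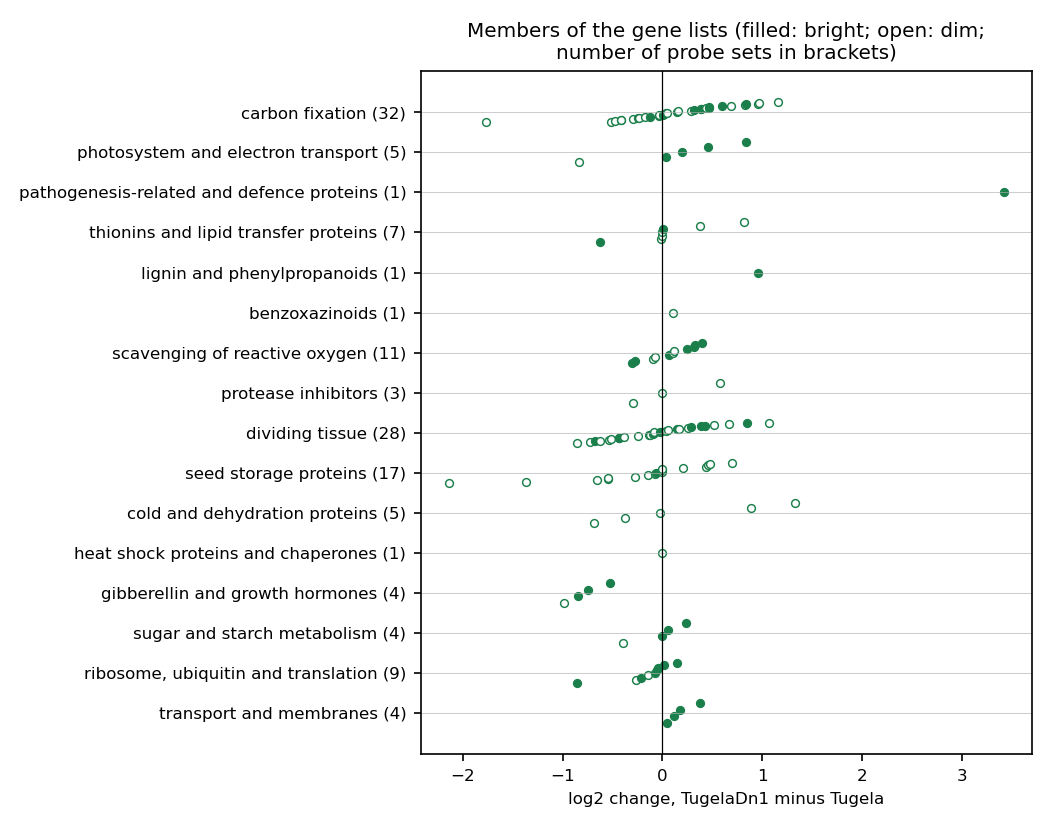
Log2 change (TugelaDn1 minus Tugela, x axis) of each member of the 16 gene lists (y axis, number of probe sets in brackets), filled where bright and open where dim. PR5 at 3.42 is the most distant point, the 4 gibberellin 20-oxidase probe sets lie below 0, and most other bright members lie within 1 of 0.

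Comparison with the other Dn lines shares the Tugela arrays, so only values are set side by side. TaAffx.107226.1.S1_at had log2 changes from Tugela of -1.84, -1.76 and -1.83 for TugelaDn1, TugelaDn2 and TugelaDn5. In this order of lines, Ta.5897.3.S1_at had -4.06, -1.31 and -4.03, and Ta.18372.1.S1_at had -2.25, -2.14 and -0.55. Where a Dn line lay at or next to the floor, as TaAffx.107226.1.S1_at did in all 3, the change is the distance of Tugela from the floor, and equal values there are set by it. Ta.3467.2.S1_a_at was lowest in TugelaDn1, at -3.80 there, -1.46 in TugelaDn2 and -1.05 in TugelaDn5.

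Between the Dn lines, 45 probe sets were called for TugelaDn1 against TugelaDn2 (0.0736%) and 1158 for TugelaDn1 against TugelaDn5 (1.89%). From Tugela, LOC542812 was at 1.5 in TugelaDn1, at 0.20 in TugelaDn2 and at 0.01 in TugelaDn5, and PEAMT1 at 1.97, 0.07 and 0.83 in the same order. LOC543313 was at 1.92 in TugelaDn1 and at -0.21 and -0.15 in TugelaDn2 and TugelaDn5. The Dn lines did not pass limma's test against each other for PEAMT1 (adjusted p of 0.136 for TugelaDn1 against TugelaDn2 and 0.189 against TugelaDn5) or LOC543313 (0.374 and 0.194), and LOC542812 passed it against TugelaDn5 (0.0281) but not against TugelaDn2 (0.174). LOC542941 had log2 changes from Tugela of 4.17, 4.52 and 5.10 for TugelaDn1, TugelaDn2 and TugelaDn5, and Ta.223.1.S1_at had 3.94, 4.37 and 4.29 in that order. Ta.1912.1.S1_at and Ta.5498.1.S1_at, low in TugelaDn1 repeats 1 and 2, had values from -0.83 to -0.35 in the other Dn lines, with an adjusted p of 0.333 to 0.505 between TugelaDn1 and those lines.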

How the data were processed

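RNA from infested leaves was biotin-labelled and hybridised to single-colour arrays, and the authors deposited linear intensities per probe set, already scaled to a common trimmed mean (2% removed at each end, as computed from the file). The software that summarised the probes is not given in the sources used here, and the paper read for style does not describe these arrays. The values used were the 61290 probe sets of 13 arrays. From these, 111 AFFX controls were removed, intensities under 16 were set to 16 and log2 was taken. The 2 arrays of TugelaDn5 repeat 3 were averaged, leaving 12 repeats. Repeats are biological per the labels. Samples of TugelaDn2 and TugelaDn5 carry a description that names TugelaDn1, and their title and genotype were followed.

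TugelaDn1 was compared with Tugela in limma 3.58.1 (R 4.3.3; lmFit, contrasts.fit, eBayes, two-sided), with 4 lines in 1 fit, 8 residual and 1.453 prior degrees of freedom, and p-values adjusted by Benjamini-Hochberg over 61179 probe sets. A probe set was called at an adjusted p under 0.05. Simulated data of 61179 probe sets with normal noise held 50 changed probe sets per fold, all drawn from those above the median level. This comparison recovered 0% of them at 1.5-fold, 20% at 2-fold, 72% at 4-fold and 78% at 8-fold, with 10 of 95 calls false. The floor was set before the changes were added, so simulated falls could run below it, which falls in the data cannot. Recovery of falls that end at the floor and of changes in dimmer probe sets was not tested. The number of arrays limits the precision. Alternatives were other floors, a pseudocount, other normalizations, filters, priors and sample sets, blocks by repeat number, and each repeat left out.

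Genes came from the platform's probe table, named through RefSeq genes of IWGSC CS RefSeq v2.1: 1273 probe sets had 1 gene, 0 several and 59906 none, and of 771 genes 102 were named beyond a LOC number. LOC genes were given no role. The suffixes _a_at, _s_at and _x_at mark probe sets whose probes may also match further transcripts. Named probe sets were every called one, up to 4 bright members per gene list, and PR5. They also included the 10 largest differences in each direction among bright probe sets without overlap. The 15 largest in each direction among those with a gene were added. So were the 6 clusters with the largest median in each direction among those whose bright members all had no overlap. Members and the 20 lists were chosen with earlier results of these data known. After values were seen, 4 names matched by mistake were removed from lists and 2 histones added.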

Additional observations from a re-analysis of the deposited data

Results flagged for a closer look

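For some probe sets named above, the level in TugelaDn1 differed from that in another Dn line by limma's test of that difference, so that their changes from Tugela differed between lines. LOC543256 (Ta.3795.1.S1_x_at) averaged 13.39 in TugelaDn1, against 10.20 in TugelaDn2, 10.35 in TugelaDn5 and 12.20 in Tugela, a log2 difference of 3.19 from TugelaDn2 (adjusted p = 0.0168) and 3.04 from TugelaDn5 (adjusted p = 0.00152). By its mean it was higher than Tugela in TugelaDn1 and lower than Tugela in the other Dn lines. Of these changes from Tugela only that of TugelaDn5 (-1.85, adjusted p = 0.0231) passed limma's test. Those of TugelaDn1 (1.19, adjusted p = 0.482) and TugelaDn2 (-2.0, adjusted p = 0.128) did not.

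Against TugelaDn5, TugelaDn1 was higher for TaAffx.9022.1.S1_at by 3.42 (adjusted p = 0.0352), for Ta.7926.1.A1_at by 3.35 (adjusted p = 0.0393) and for LOC542812 (Ta.2781.1.S1_at) by 1.49 (adjusted p = 0.0281). It was lower for 2 probe sets of cluster Ta.21340, with log2 differences of -4.25 for Ta.21340.1.S1_a_at and -3.96 for Ta.21340.1.S1_at, where TugelaDn5 averaged 14.5 and 12.15. Differences from TugelaDn5 were -3.56 for Ta.26802.1.A1_at, -2.75 for Ta.3467.2.S1_a_at, -1.70 for Ta.18372.1.S1_at and -1.45 for Ta.6187.1.S1_at. GA20ox1d (Ta.141.1.S1_x_at) differed by -1.63 (adjusted p = 0.0381) and the beta-tubulin tubb2 (Ta.1544.1.S1_at) by -1.01 (adjusted p = 0.0326), both lower in TugelaDn1 than in TugelaDn5. Over all probe sets, 1158 were called between TugelaDn1 and TugelaDn5 (1.89%) and 45 between TugelaDn1 and TugelaDn2 (0.0736%).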

How the results depend on the processing

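The number of called probe sets was 5 (1 higher, 4 lower) and moved with most settings. It was 14 (10 higher, 4 lower) at a floor of 32, 10 (6, 4) at 64, 2 (2, 0) at the highest floor tried, 3 (1, 2) with a pseudocount of 16, 2 (1, 1) when only probe sets over the median level were tested, 3 (3, 0) among those with a mean log2 of 8 or more, 18 (12, 6) with a trended robust prior, 30 (13, 17) in a fit of 6 arrays and 7 (2, 5) without the second array of TugelaDn5 repeat 3. With single repeats left out it was 3 to 64, 1 to 39 higher and 2 to 25 lower: 64 without TugelaDn1 repeat 3, 31 without repeat 1, 10 without repeat 2, 26 without Tugela repeat 2, 19 without repeat 1, 15 without repeat 3, 17 without TugelaDn2 repeat 3, 11 without TugelaDn5 repeat 1 and 3 without TugelaDn5 repeat 2. The cause was not tested. TaAffx.104444.1.S1_at was called in all settings but the fit of 6 arrays (adjusted p = 0.0547). Ta.5897.3.S1_at was not called at any higher floor (adjusted p of 0.0707 to 0.371), with the repeat number as a block (0.122), or without Tugela repeat 1 or 3, TugelaDn1 repeat 2 or TugelaDn5 repeat 2 or 3 (0.0536 to 0.0693). Ta.3467.2.S1_a_at was not called at a floor of 64 or above (0.156 and 0.269), with the block (0.0565) or without TugelaDn1 repeat 2 (0.0615). TaAffx.107226.1.S1_at was not called at those floors, with the pseudocount (0.208) or with the trended prior (0.13). Ta.18372.1.S1_at was called in no alternative that kept all 12 repeats and tested it (0.0544 to 1), nor without Tugela repeat 1 or 2, TugelaDn1 repeat 1 or 2, TugelaDn2 repeat 1 or 2, or TugelaDn5 repeat 2 or 3 (adjusted p of 0.0514 to 0.0788). LOC542941 was called among probe sets with a mean of 8 or more, with the trended prior and without TugelaDn1 repeat 1.

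The correlations of same-numbered deviations from the line means were -0.00106, -0.111 and 0.00459, and those of differently numbered ones -0.143 to 0.158. With 3 repeats per line these values cannot tell whether equal repeat numbers were grown or hybridised together. With the repeat number as a block, 2 probe sets were called (1 higher, 1 lower).

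Unadjusted p under 0.05 was reached by 2689 probe sets over the median level and by 2110 with a mean of 8 or more, where fewer were tested. Bright 2-fold probe sets without overlap numbered 141 higher and 46 lower under the latter filter, and 185 to 354 higher and 77 to 167 lower with single repeats left out. Median centring gave 149 higher and 93 lower. Clusters with all bright members 2-fold lower numbered 2 under that filter, and with single repeats left out they were 3 to 7 lower and 20 to 37 higher, the extreme of 37 and 7 being without TugelaDn1 repeat 1.

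Probe sets near 0 changed sign. LTP3 (Ta.1282.1.S1_x_at) was at -0.04 with quantile normalization and -0.03 with median centring, and H+-ATPase (Ta.28364.1.S1_x_at) and PsbO (Ta.841.1.S1_a_at) were at -0.04 with quantile normalization. BMY1 was at -0.02 with the pseudocount, -0.03 with quantile normalization and -0.04 with median centring, where PsbO was at -0.00. With single repeats left out, log2 changes were -0.07 to 0.10 for that LTP3 probe set, -0.08 to 0.19 for that H+-ATPase probe set, -0.12 to 0.18 for PsbO, -0.01 to 1.17 for Serpin-Z1C, -0.82 to 0.02 for Serpin-Z2A, -0.08 to 0.14 for AGP-S, -0.12 to 0.02 for ALP, -1.42 to 0.21 for RPS29, -0.79 to 0.89 for BMY1 and -0.26 to 0.47 for GLU1A.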
